A study of Mus musculus with 6 samples.

Results

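Mitochondrial ribosomal protein genes were taken as all gene symbols that read Mrpl or Mrps, then a number and at most 1 of the letters a, b or c. The rule found 78 of the 53599 gene symbols in the count table, and 77 of the 12691 genes that passed the expression filter. They comprised 51 genes of the large subunit, 26 of the small subunit, and Mrps36, which carries a ribosomal symbol but encodes a component of the 2-oxoglutarate dehydrogenase complex. Mrpl53, a large subunit gene, had 0 counts in every library and was not tested. In GENCODE M21, 88.0% of its exon bases lie in an overlapping gene of the same strand, Gm42688, so a count of 0 does not show that it was not transcribed. All 78 members are nuclear protein-coding genes, spread over 17 chromosomes, with 11 of them on chromosome 11.

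The mitochondrial ribosome translates the few mRNAs that mitochondrial DNA encodes, all of which are translated into core subunits of the respiratory chain and ATP synthase. Its rRNAs are made inside the organelle, whereas its proteins are encoded in the nucleus, translated in the cytosol and imported. The small subunit reads the mRNA and the large subunit forms the peptide bond and releases the chain at the inner membrane. Many of its proteins have a bacterial counterpart, and others were added during the evolution of mitochondria. Hepatocytes are rich in mitochondria, which supply the energy for the synthetic work of the liver.

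Hepatocytes came from male mice that carry a Cre-inducible Cas9-EGFP allele at Rosa26, injected by the retro-orbital route at 4 to 8 weeks of age with AAV8, a hepatotropic viral vector. EV mice (n = 3; genotype given in the labels as WT) received a vector with Cre alone. Sox4 mice (n = 3) received one with HA-tagged Sox4, a transcription factor, joined to Cre by a P2A peptide, so that Cre was shared by both groups. The hepatocyte-active TBG promoter drove both vectors, and cells were harvested 4 days post injection by liberase digestion and Percoll enrichment.

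Total counts per library ranged from 15090629 to 16964860. Sox4 itself had 2, 0 and 3 counts in the EV libraries and 21697, 15097 and 11816 in the Sox4 libraries. The summed level of 6 hepatocyte markers, in CPM (counts scaled to libraries of 1e06) on TMM-scaled libraries, was 109200 to 132000 in EV and 77960 to 89340 in Sox4. Ranges in EV and Sox4 were 10.01 to 21.9 and 48.4 to 58.9 CPM for 6 cholangiocyte markers, 8.16 to 16.9 and 14.4 to 39.3 for 6 Kupffer cell markers, 12.4 to 19.0 and 9.11 to 22.3 for 5 endothelial markers, 8.23 to 43.2 and 72.2 to 133 for 5 stellate markers, 0.616 to 2.05 and 1.10 to 3.93 for 5 lymphoid and neutrophil markers (Ly6g was at 0 throughout), and 92.9 to 126 and 4.96 to 15.5 for 3 erythroid markers. These ranges hold for TMM only. By the test described below, 4 of the 6 hepatocyte markers were lower with TMM and 2 with total counts. Of all tested genes, 26.0% and 12.8% were lower. Of 3 tested cholangiocyte markers, 2 were higher with each scaling. Kupffer cell markers were higher for 2 of 6 with TMM and 5 of 6 with total counts. Of 2 tested stellate markers, 1 was higher with TMM and 2 with total counts. Among 5 endothelial markers, 1 was higher with each, and 1 was lower with TMM. The 1 tested erythroid marker was lower with both, and the 1 tested lymphoid or neutrophil marker passed with neither. Of all tested genes, 29.0% and 50.9% were higher. The part of these shifts in the results for mitochondrial ribosomal protein genes was not tested. In bulk RNA, fewer cells of a type and less RNA per cell cannot be told apart.

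The comparison asked how this group of genes differed between hepatocytes given Sox4 and hepatocytes given EV. Its answer depended on the scaling of the libraries. TMM (trimmed mean of M-values) sets the bulk of genes at no change, whereas total-count scaling divides by all counts. The ratio of the mean library size in Sox4 to that in EV was 1.485 with TMM and 1.072 by total counts. All tested genes had a median log2 fold change (Sox4 over EV) of 0.04 with TMM and 0.51 with total counts. Calls of the members and of the other lists are therefore given with both scalings, and CPM of single genes with TMM. Each scaling used the edgeR quasi-likelihood test, adjusted over all tested genes by Benjamini-Hochberg with a threshold of 0.05.

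The members together held 30570, 28936 and 29687 counts in the EV libraries and 36185, 29677 and 31362 in the Sox4 libraries. Their summed level in CPM on total counts was 2026, 1844 and 1827 in EV and 2133, 1779 and 1867 in Sox4, with means of 1899 ± 110.1 and 1927 ± 184.1 (SD, n = 3). The groups overlapped on this scale, with a ratio of 1.015. With TMM, the summed level was 2352, 2194 and 2153 CPM in EV and 1811, 1514 and 1587 in Sox4, with a ratio of 0.7332. Every Sox4 library was then below every EV library. Replicate 1 was the highest library of its group with both scalings, and with TMM it held the highest value of its group for 45 of 77 members in EV and for 49 in Sox4.

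**Figure D1:**
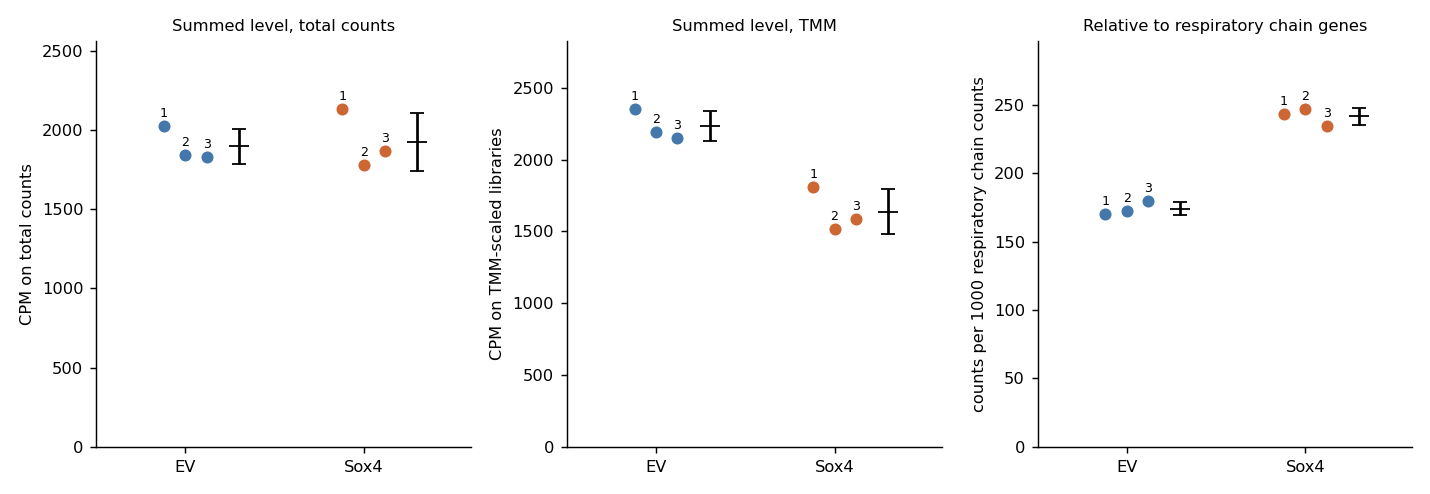
Summed level of the 78 mitochondrial ribosomal protein genes in each library (points, numbered by replicate) with the group mean and SD (bars), in CPM on total counts (left), in CPM with TMM (centre) and per 1000 counts of nuclear respiratory chain genes (right). The groups overlap on total counts, Sox4 lies below EV with TMM, and Sox4 lies above EV relative to respiratory chain genes.

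With TMM, 44 of the 77 tested members were lower in Sox4, 1 was higher and 32 did not pass the test. The median log2 fold change was -0.42, with a range from -1.18 to 1.23. Of all genes tested, 26.0% were called lower and 29.0% higher. Sox4 libraries all lay below EV libraries for 48 members, where 29.9% of all genes did so, and above them for 2, where 33.1% of all genes did so. With total counts, 6 members were lower, 14 were higher and 57 did not pass, with a median of 0.05. Here 12.8% of all genes were called lower and 50.9% higher. The groups did not overlap for 12 members with Sox4 below (14.8% of all genes) and 19 with Sox4 above (54.6% of all genes).

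Calls shared by both scalings, and calls in fits that left out 1 library, were counted for the members and not for all tested genes. These counts are therefore not read as a trait of the members. Mrps27, Mrpl23, Mrpl4, Mrps24, Mrpl12 and Mrps7 were the 6 members lower with both, and Mrps6 was the 1 member higher with both. The fold change was below 0 with TMM and above 0 with total counts for 32 members, below 0 with both for 35 and above 0 with both for 10. No member was called lower with one scaling and higher with the other, and 19 were called by neither. Without Sox4 replicate 1, 49 members were lower with TMM and 16 with total counts. Without Sox4 replicate 2, these counts were 28 and 2. Total counts gave 2 lower members without EV replicate 1, and 8 and 9 higher members without EV replicates 2 and 3. In all 6 fits that left out 1 library, 26 members stayed lower and Mrps6 stayed higher with TMM, whereas Mrpl23 and Mrps27 stayed lower and 8 members stayed higher with total counts.

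**Figure D2:**
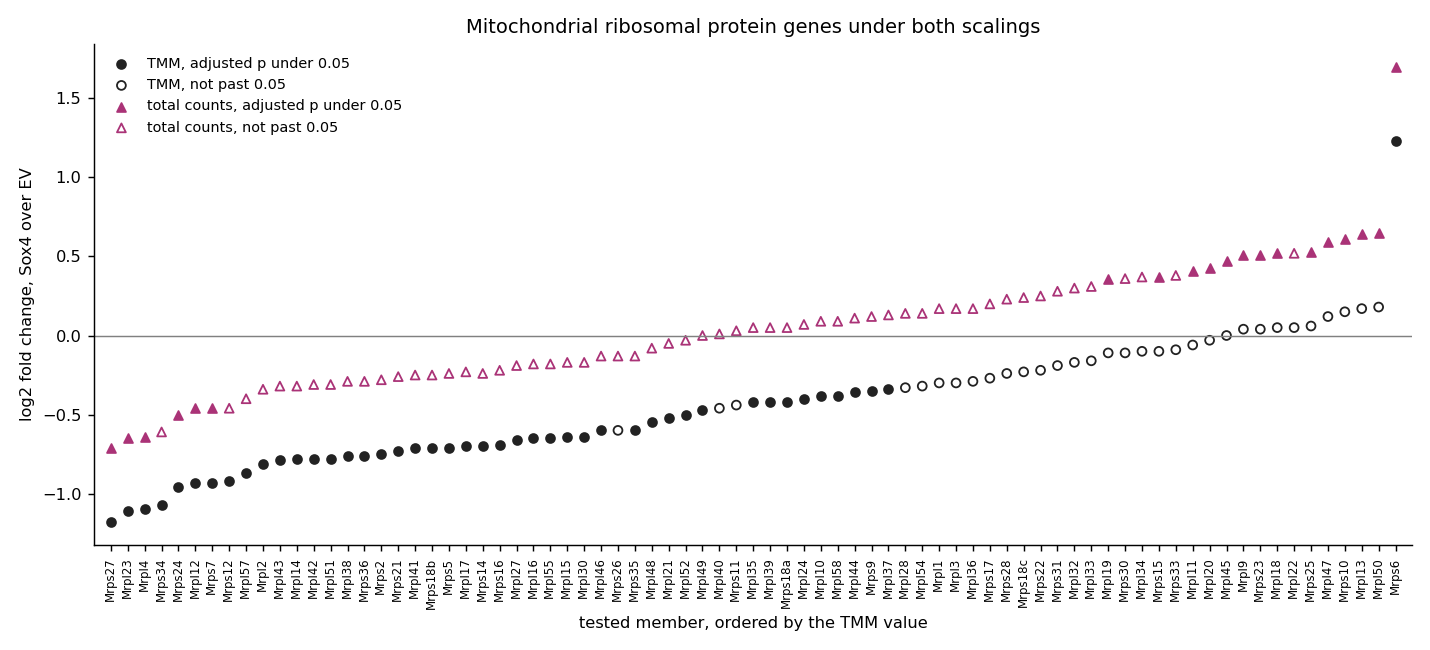
Log2 fold change, Sox4 over EV, of each of the 77 tested members with TMM (circles) and with total counts (triangles), ordered by the TMM value. Filled symbols passed the adjusted threshold of 0.05. The total-count values lie above the TMM values for every member, and Mrps6 stands apart at 1.23 and 1.70.

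The scalings move all genes by nearly the same amount, so the place of the members among other genes is given once and is no test of the scaling. Relative to the median of all tested genes, the median of the members with TMM was 0.47 lower on the log2 scale, and 68 of 77 members (88.3%) lay below that median. With TMM, 30 of 50 large subunit genes were lower and none higher (median -0.42), and 13 of 26 small subunit genes were lower and 1 higher (median -0.52). With total counts, 3 and 9 of the large subunit genes were lower and higher, as were 3 and 5 of the small subunit genes. The difference between subunits was not tested.

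The genes were also grouped by origin, and differences between these groups were not tested. With TMM, 15 of 30 large subunit genes with a bacterial counterpart and 15 of 20 found in mitochondria only were lower, with medians of -0.35 and -0.46. In the small subunit, 9 of 16 genes with a bacterial counterpart and 4 of 10 found in mitochondria only were lower, with medians of -0.56 and -0.41. With total counts, these medians were 0.11, 0.01, -0.10 and 0.06, in the same order. Mrps36, the gene that is no ribosomal component, was lower with TMM at -0.76 and did not pass at -0.29 with total counts.

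Members with the lowest fold changes included proteins from both subunits. Mrps27, a pentatricopeptide repeat protein of the small subunit, was measured at 41.3, 33.7 and 34.1 CPM (TMM) in EV and at 15.7, 17.2 and 15.2 in Sox4. All Sox4 libraries were below all EV libraries, and the log2 fold change was -1.18 (SE 0.11, adjusted p = 5.9e-05, edgeR) with TMM and -0.71 (SE 0.12, adjusted p = 0.00125) with total counts. Of its exon bases, 24.2% lie opposite 6430562O15Rik on the other strand, and without a stated strand setting the reads of such genes cannot be told apart. Mrpl23, which lies by the exit of the nascent chain tunnel, was measured at 20.2, 22.2 and 17.6 CPM in EV and 11.5, 7.86 and 8.35 in Sox4. Its log2 fold change was -1.11 (SE 0.19, adjusted p = 0.000621) with TMM and -0.65 (adjusted p = 0.0113) with total counts, with no overlap between groups. It shares 11.8% of its sequence in 50-base words with other genes, the most with a pseudogene, Mrpl23-ps1.

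Mrpl4, a protein that lines the same tunnel, was measured at 50.2, 38.4 and 31.2 CPM (TMM) in EV and 24.7, 16.3 and 14.7 in Sox4. Replicate 1 was the highest in each group. Its log2 fold change was -1.10 (SE 0.30, adjusted p = 0.00330) with TMM and -0.64 (adjusted p = 0.0394) with total counts, where the groups overlapped. Mrps34, a mitochondria-only protein of the small subunit, fell with TMM (log2 fold change -1.07, adjusted p = 0.00854) from 35.2, 27.1 and 24.9 CPM to 20.2, 9.85 and 11.4. With total counts it did not pass (-0.61, adjusted p = 0.0781). It overlaps Nme3 on its own strand and Mapk8ip3 on the other (37.0% and 63.4% of its exon bases), so its counts are uncertain.

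Mrps24, a core protein of the small subunit, was measured at 42.6, 33.1 and 34.0 CPM (TMM) in EV and 21.7, 18.3 and 16.2 in Sox4. The log2 fold change was -0.96 (SE 0.17, adjusted p = 0.000541) with TMM and -0.50 (adjusted p = 0.0192) with total counts. Its exons overlap those of Urgcp over 15.4% of their bases. Mrpl12 forms the stalk that recruits translation factors to the large subunit. It was measured at 104, 86.8 and 85.7 CPM in EV and 57.7, 41.6 and 46.0 in Sox4, with a fold change on the log2 scale of -0.93 (SE 0.17, adjusted p = 0.000479) with TMM and -0.46 (adjusted p = 0.0200) with total counts. Of its exon bases, 13.1% lie opposite Gm16755. Neither Mrps24 nor Mrpl12 had overlapping groups with either scaling.

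Mrps7, which binds the small subunit rRNA in the head of the subunit, fell from 66.8, 58.0 and 53.1 CPM (TMM) to 37.7, 30.7 and 25.2, with a log2 fold change of -0.93 (adjusted p = 0.000830) and of -0.46 (adjusted p = 0.0298) with total counts. Of its exon bases, 11.9% lie opposite Gga3 or Mif4gd. Mrps12, a protein of the decoding centre, was the least certain of these genes. Its levels were 37.3, 34.4 and 25.4 CPM in EV and 27.1, 12.4 and 11.5 in Sox4, and replicate 1 of Sox4 lay within the EV range. Its log2 fold change was -0.92 (SE 0.43, adjusted p = 0.0493) with TMM, and -0.46 (adjusted p = 0.266) with total counts.

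At the other end of the order stood Mrps6, a core protein of the small subunit platform and the 1 member that was higher with both scalings. It was measured at 5.46, 5.92 and 6.02 CPM (TMM) in EV and 14.0, 12.7 and 14.2 in Sox4. The groups were far apart for the spread within them, and the log2 fold change was 1.23 (SE 0.06, adjusted p = 0.000130) with TMM and 1.70 (SE 0.06, adjusted p = 1.4e-05) with total counts. Slc5a3, which encodes a myo-inositol transporter, shares exon bases with Mrps6 on the same strand, and 19.9% of the exon bases of Mrps6 lie in it or in Gm49711. Slc5a3 had 37, 62 and 81 counts in EV and 388, 341 and 437 in Sox4, a log2 fold change of 2.13 (adjusted p = 6.4e-05) with TMM. How far reads of Slc5a3 were counted for Mrps6 was not tested.

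The other members with the highest fold changes did not pass with TMM and, with the exception of Mrpl22, were higher with total counts. Mrpl50, a mitochondria-only protein of the large subunit, was measured at 50.8, 57.25 and 57 CPM (TMM) in EV and 57.2, 62.5 and 67.2 in Sox4. Its log2 fold change was 0.18 (SE 0.09, adjusted p = 0.196) with TMM and 0.65 (SE 0.08, adjusted p = 0.000604) with total counts. Mrpl13, a core protein of the large subunit, had 34.5, 37.2 and 37.7 CPM in EV and 43.7, 37.3 and 41.8 in Sox4. Its log2 fold change was 0.17 (adjusted p = 0.224) with TMM and 0.64 (adjusted p = 0.000706) with total counts.

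Mrps10, a core protein of the small subunit head, had 37.5, 32.1 and 34.96 CPM (TMM) in EV and 40.4, 37.5 and 37.8 in Sox4. These groups did not overlap by a narrow margin, and the log2 fold change was 0.15 (adjusted p = 0.285) with TMM and 0.61 (adjusted p = 0.00103) with total counts. Mrpl47, Mrps25 and Mrpl18, with values of 0.12, 0.06 and 0.05 with TMM, reached 0.59 (adjusted p = 0.0140), 0.53 (adjusted p = 0.0410) and 0.52 (adjusted p = 0.00448) with total counts. Mrpl22, a protein of the exit tunnel, was at 0.05 with TMM and 0.52 with total counts, and passed with neither (adjusted p = 0.873 and 0.0761). Other genes lie opposite 24.2% of the exon bases of Mrpl47, 69.8% of those of Mrps25 and 10.1% of those of Mrpl18, and Mrpl22 shares 22.4% of its 50-base words, most with Gm6997.

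Since members share 1 scaling, fold changes within the group need no scaling to the rest of the transcriptome. Dispersions and adjusted p-values still came from all tested genes. Each member was tested against the summed counts of all members. On this scale 13 members were higher and 8 lower in Sox4, where 48.2% and 13.0% of all tested genes were called higher and lower. Without EV replicates 1, 2 and 3, the counts of higher members were 8, 6 and 7, and without Sox4 replicate 3 the count was 8. Those of lower members were 4 without EV replicate 1 and 16 without Sox4 replicate 1. Called in each fit that left out 1 library were 4 lower members, Mrps27, Mrpl23, Mrps24 and Mrpl12, and 5 higher ones, Mrps6, Mrpl50, Mrpl13, Mrps10 and Mrpl9.

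Mrpl12 made up 4.42%, 3.95% and 3.98% of the members' counts in EV and 3.19%, 2.75% and 2.90% in Sox4. Mrpl50 made up 2.16%, 2.61% and 2.65% in EV and 3.16%, 4.13% and 4.23% in Sox4. Mrpl12 thus exceeded Mrpl50 in counts in each EV library and in replicate 1 of Sox4, and Mrpl50 exceeded Mrpl12 in replicates 2 and 3 of Sox4. Mrpl9, a core protein of the large subunit, made up 1.501%, 1.53% and 1.57% in EV and 2.06%, 2.29% and 2.11% in Sox4. The change relative to all members was -0.72 (adjusted p = 0.00204) for Mrps27, -0.48 (adjusted p = 0.00722) for Mrpl12, 0.49 (adjusted p = 0.00680) for Mrpl9, 0.63 (adjusted p = 0.00456) for Mrpl50 and 1.68 (adjusted p = 1.6e-05) for Mrps6, all as log2.

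**Figure D3:**
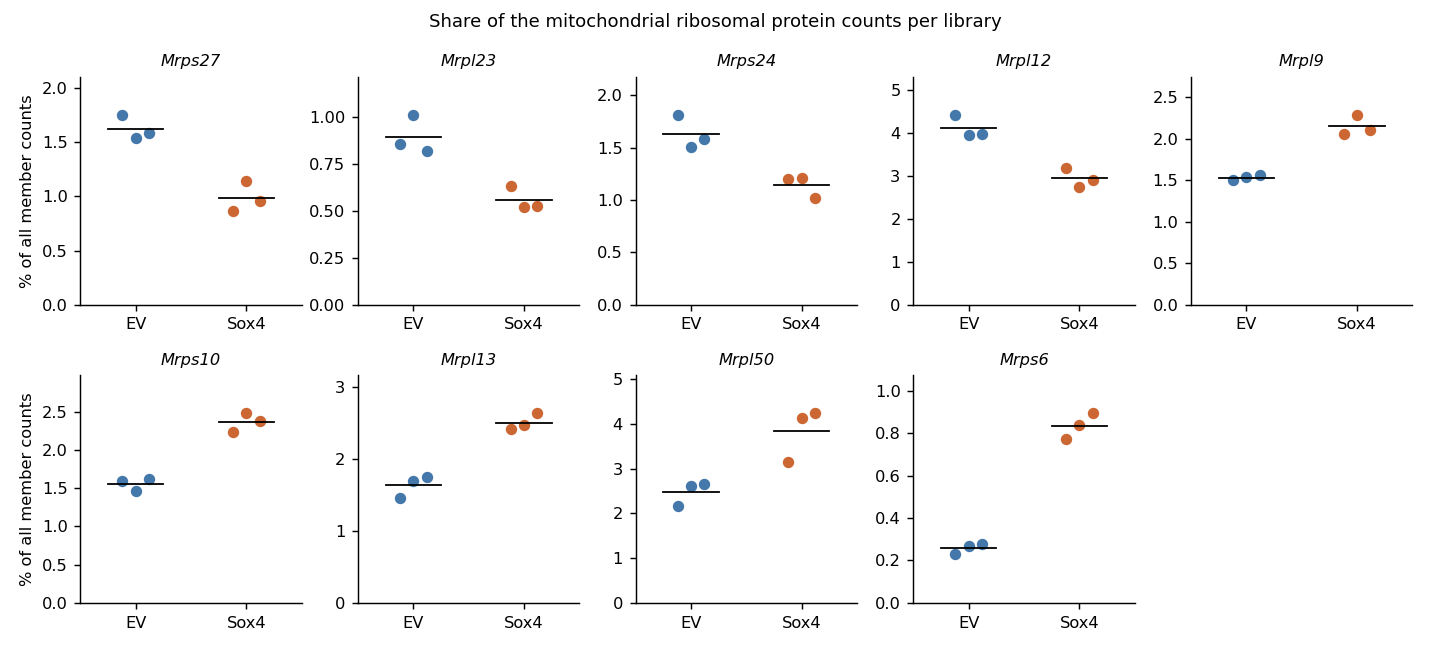
Share (%) of all mitochondrial ribosomal protein counts held by each of the 9 members that were called relative to the group in every fit that left out 1 library. Points are libraries, bars are group means, and each vertical axis starts at 0. The EV and Sox4 points do not overlap in any of the 9 panels. The members shown were chosen by their calls on these same values, so this lack of overlap is no further support. The share of all tested genes without overlap on this scale was not counted.

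Levels of different genes were compared per kilobase of the principal transcript. Counts are per gene, so the order may depend on the length chosen. Mrpl52 has 418 bases in that transcript and 1109 in all exons, Mrpl42 has 666 and 3682, and Mrpl12 has 1316 and 1532. The 77 tested members lay between 1.36 and 78.2 CPM per kb (TMM) in EV, with a median of 20.8, and the median in Sox4 was 14.4. Mrpl52 was highest at 78.2 ± 4.86 CPM per kb (SD, n = 3) in EV and 55.3 ± 14.0 in Sox4, and Mrpl12 was next in EV at 70.0 ± 7.80, with 36.8 ± 6.34 in Sox4. Their EV ranges, 72.7 to 81.9 and 65.1 to 79.0, overlapped. Mrpl42 (55.0 ± 1.98 in EV and 32.1 ± 6.48 in Sox4), Mrps21 (50.03 ± 5.51 and 30.2 ± 11.95) and Mrpl30 (48.9 ± 2.87 and 31.3 ± 1.18) came next in EV, with EV ranges of 52.7 to 56.3, 45.5 to 56.2 and 47.1 to 52.3, so that Mrps21 was not apart from either of the others. The cut after the fifth was not resolved, since Mrpl34 was at 48.1 ± 10.6 in EV (37.4 to 58.6) and overlapped Mrpl42, Mrps21 and Mrpl30. Mrpl34, named after its values were seen, was at 44.9 ± 10.8 in Sox4 and passed with neither scaling (log2 fold change -0.10 and 0.37, adjusted p = 0.702 and 0.149). In Sox4, Mrpl34 and Mrps10 (37.9 ± 1.58) had higher means than Mrpl12. The first 5 members in EV were lower with TMM, and only Mrpl12 among them was lower with total counts. Mrps25 was the lowest, at 1.36 CPM per kb in EV and 1.42 in Sox4, and 69.8% of its exon bases lie opposite Nr2c2, so its level is uncertain. Of the 38 members above the median level in EV, 22 were lower with TMM, as were 22 of the 39 at or below it, with medians of -0.41 and -0.44.

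**Figure D4:**
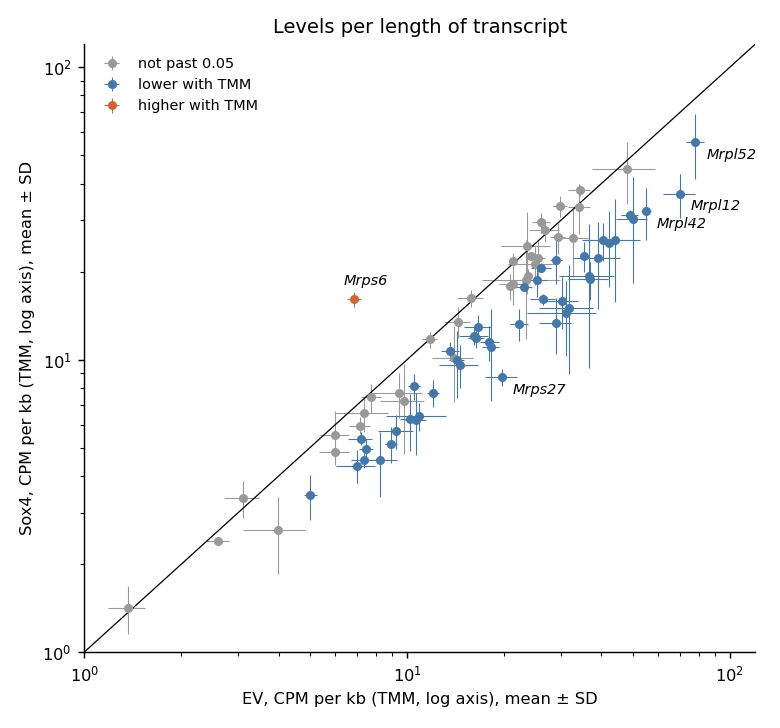
Mean level of each of the 77 tested members in EV (horizontal) and Sox4 (vertical), in CPM per kb of the principal transcript with TMM, on log axes, with bars for the SD (n = 3) and a line of equal levels. Most points lie below the line over the whole range of levels, and Mrps6 lies above it at 6.86 in EV and 16.1 in Sox4.

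Mammals have 3 paralogs of the bacterial protein S18, of which Mrps18a sits in the large subunit, and Mrps18b and Mrps18c in the small subunit. Mrps18b was measured at 30.6, 25.8 and 29.1 CPM (TMM) in EV and 16.5, 17.6 and 18.0 in Sox4, and its log2 fold change was -0.71 (adjusted p = 0.000959) with TMM and -0.25 (adjusted p = 0.117) with total counts. Mrps18a was lower with TMM at -0.42 (adjusted p = 0.0287) and at 0.05 (adjusted p = 0.794) with total counts. Mrps18c, with overlapping groups, was at -0.23 (adjusted p = 0.266) and 0.24 (adjusted p = 0.236). Of the exon bases of Mrps18b, 30.5% lie opposite Gm16279, and of those of Mrps18c, 23.2% lie in Gm43511 on the same strand, so both counts are uncertain. Differences between the paralogs were not tested.

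Promoters of 69 members were listed in RefSeq (build GRCm38.p6), from 250 bases before to 50 after the start. Motifs of regulators known from nuclear genes for mitochondrial proteins were searched on both strands. CCGGAAG, which ETS factors such as GABPA bind, was present in 36.2% of members, against 9.12% of all promoters and 18.9% of those of tested genes. The NRF1 motif (GCGC, any base, then TGCGC) was present in 18.8% of members against 4.78% and 10.8%, and AAGATGGCG, the YY1 motif, in 11.6% against 1.49% and 3.37%. Promoters of 40 members, or 58.0%, held at least 1 of them, against 29.8% of tested genes. Of the members called relative to the group in every fit that left out 1 library, Mrpl23, Mrpl50, Mrps10 and Mrps6 had no match. Mrps24 had only a YY1 match after the start. Mrpl13 had no listed promoter. Mrps27 and Mrpl12 (lower in each of these fits) and Mrpl9 (higher) had a match before the start, and Mrps27 also had a YY1 match after it. Mrpl30, Mrpl52 and Mrps21, which like Mrpl12 were among the 5 highest per kb in EV, also had a match before the start. For Mrps27, Mrpl12, Mrpl9 and Mrpl30, the 250 bases before the start are shown. They are written from 5′ to 3′ on the strand of the gene, with the ETS motif (Mrps27, on the other strand) or the NRF1 motif (the others) in capitals.
Mrps27, chr13:99344536-99344785, plus strand: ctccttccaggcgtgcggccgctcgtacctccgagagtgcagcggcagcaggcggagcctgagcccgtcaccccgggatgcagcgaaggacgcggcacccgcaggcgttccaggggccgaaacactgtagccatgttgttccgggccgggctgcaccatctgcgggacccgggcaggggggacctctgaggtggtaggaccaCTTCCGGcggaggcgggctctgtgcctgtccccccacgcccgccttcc
Mrpl12, chr11:120484387-120484636, plus strand: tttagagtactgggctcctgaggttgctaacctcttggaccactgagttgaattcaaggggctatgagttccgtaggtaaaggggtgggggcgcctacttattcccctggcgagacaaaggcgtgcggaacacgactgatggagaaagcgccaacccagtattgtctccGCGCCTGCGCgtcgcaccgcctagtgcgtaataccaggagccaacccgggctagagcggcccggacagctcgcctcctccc
Mrpl9, chr3:94443086-94443335, plus strand: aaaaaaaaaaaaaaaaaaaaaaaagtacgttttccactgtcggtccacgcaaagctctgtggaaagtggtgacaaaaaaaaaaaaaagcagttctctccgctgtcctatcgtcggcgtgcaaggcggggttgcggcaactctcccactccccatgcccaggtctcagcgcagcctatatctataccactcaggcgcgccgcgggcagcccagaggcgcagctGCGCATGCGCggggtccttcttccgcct
Mrpl30, chr1:37890227-37890476, plus strand: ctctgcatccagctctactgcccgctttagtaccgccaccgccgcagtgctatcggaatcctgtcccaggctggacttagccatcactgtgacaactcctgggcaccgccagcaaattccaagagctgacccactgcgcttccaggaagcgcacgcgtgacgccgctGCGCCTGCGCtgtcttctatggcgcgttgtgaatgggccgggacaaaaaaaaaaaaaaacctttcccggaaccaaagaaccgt
Mrpl12, which was lower with both scalings, and Mrpl9, which was higher with total counts, thus both held a match to the NRF1 motif. With TMM, 9 of 13 tested members with it were lower (median -0.60), as were 30 of 55 without it (median -0.42). For the ETS motif the counts were 14 of 24 (median -0.51) and 25 of 44 (median -0.41), and for the YY1 motif 6 of 8 (median -0.43) and 33 of 60 (median -0.41). A match is a description of letters and does not show that a factor bound there. Another protein-coding gene starts within 1000 bases on the opposite strand, head to head, for 33 members, of which 21 were lower with TMM, as were 23 of the other 44.

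Some proteins of the mitochondrial ribosome have symbols outside the rule, and 5 of them were examined. Aurkaip1, of the small subunit, was measured at 59.0, 58.6 and 49.7 CPM (TMM) in EV and 33.04, 26.9 and 25.2 in Sox4, and it was lower with TMM (log2 fold change -0.97, adjusted p = 0.000224) and with total counts (-0.50, adjusted p = 0.00871). Gadd45gip1, of the large subunit, was lower with TMM (-1.19, adjusted p = 0.0198) and did not pass with total counts (-0.72, adjusted p = 0.105). Dap3 and Chchd1 passed with neither (-0.26 and -0.30 with TMM, 0.21 and 0.17 with total counts). Ptcd3, a pentatricopeptide repeat protein like Mrps27, did not pass with TMM (0.19, adjusted p = 0.189) and was higher with total counts (0.66, adjusted p = 0.000685).

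Genes that build or serve the mitochondrial ribosome were divided. Their counts stand beside the shares of all tested genes given above, 26.0% lower and 29.0% higher with TMM, and 12.8% and 50.9% with total counts. Of 24 assembly factors, 8 were lower and 2 higher with TMM (median -0.22), and 2 and 8 with total counts (median 0.25). The share lower with TMM, 33.3%, was near that of all genes, as was the 8.33% lower with total counts. The shares higher, 8.33% with TMM and 33.3% with total counts, were below those of all genes. Tfb1m, which methylates the small subunit rRNA, and Ngrn, which is needed for the large subunit rRNA, were lower with both (log2 fold changes with TMM -1.25 and -1.03), whereas Dhx30, an RNA helicase, was higher with both (0.74 with TMM). Of 13 translation factors, 7 were lower and none higher with TMM (median -0.52), among them the initiation factor Mtif2 (-0.59), the elongation factor Gfm1 (-0.72) and Taco1, an activator of Co1 translation (-0.79). With total counts, none of the 13 was lower and 3 were higher.

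Of 20 aminoacyl-tRNA synthetases and related enzymes of mitochondria, 10 were lower and none higher with TMM, and 2 each with total counts. Nars2, which charges asparagine, was measured at 33.3, 33.9 and 44.6 CPM (TMM) in EV and 9.46, 10.5 and 10.3 in Sox4, a log2 fold change of -1.89 with TMM and -1.42 with total counts. Gatb (-0.94 with TMM, -0.47 with total counts) was lower with both, and Lars2 with TMM but not with total counts (-0.78 and -0.31). Of 22 genes of mitochondrial RNA handling, 9 were lower and 2 higher with TMM, and 2 and 6 with total counts, or 40.9% and 9.09% with TMM, and 9.09% and 27.3% with total counts. Hsd17b10, a subunit of mitochondrial RNase P, and Mto1, a tRNA modification enzyme, were lower with both (-1.11 and -1.06 with TMM), and Lrpprc, which stabilises mitochondrial mRNAs, with TMM but not with total counts (-0.69 and -0.22).

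Among 12 genes of mitochondrial DNA transcription and replication, 5 were lower and 1 higher with TMM, and 1 and 2 with total counts, or 41.7% and 8.33% with TMM, and 8.33% and 16.7% with total counts. With so few genes, these shares rest on 1 to 5 genes each. Polg2, the accessory subunit of the mitochondrial DNA polymerase, was lower with both (-1.54 with TMM), and the catalytic subunit Polg (-0.53) and the topoisomerase Top1mt (-0.98) with TMM but not with total counts. Of the 13 mRNAs of mitochondrial DNA, the templates of this ribosome, none passed with TMM (median -0.08), and 2 were higher with total counts (median 0.39). By adjusted p with TMM, mt-Co1 (-0.45), mt-Nd2 (-0.33) and mt-Nd6 (0.33) came first. Of 11 tested regulators of mitochondrial genes, 4 were higher and 2 lower with TMM, and 7 were higher and none lower with total counts. With TMM these were 36.4% and 18.2%, beside 29.0% and 26.0% of all tested genes. With total counts 63.6% were higher, beside 50.9% of all tested genes. Myc, a factor that drives ribosome synthesis, was measured at 7.93, 4.85 and 3.26 CPM (TMM) in EV and 45.2, 44.7 and 39.9 in Sox4, a log2 fold change of 3.02 (adjusted p = 2.0e-05). Pprc1, a coactivator of NRF1, and Gabpb1, a partner of GABPA, were also higher with TMM (0.96 and 0.70) and with total counts (1.43 and 1.17).

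A pair of other large groups of genes gave a measure of the members against known neighbours in function. With TMM, 75 of 79 tested nuclear genes for respiratory chain subunits were lower and none higher (median -0.96), and with total counts 52 were lower and none higher (median -0.49). Of 75 tested cytosolic ribosomal protein genes, 36 were lower and 1 higher with TMM (median -0.34), and none lower and 11 higher with total counts (median 0.13). The median of the members lay between those of these groups, an order that a change of scaling leaves in place.

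Ratios of summed counts carry no scaling at all. Per 1000 counts of the 80 respiratory chain genes, the members held 170.2, 172.5 and 179.3 counts in EV and 242.9, 246.8 and 234.4 in Sox4. The groups did not overlap, and the mean ratio rose from 174 ± 4.77 to 241 ± 6.34 (SD, n = 3), or 1.387 times. Replicate 1 was the lowest EV library and the middle Sox4 library on this measure. Per 1000 counts of the 76 cytosolic ribosomal protein genes, the members held 188.7, 176 and 185.3 counts in EV and 170.2, 167.7 and 185 in Sox4. The groups overlapped, with means of 183 ± 6.57 and 174 ± 9.37. Per 1000 counts of the 13 mitochondrial mRNAs, they held 38.1, 34.3 and 31.2 in EV and 48.9, 25.4 and 25.1 in Sox4, where replicate 1 of Sox4 lay above all EV libraries and replicates 2 and 3 below them.

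**Figure D5:**
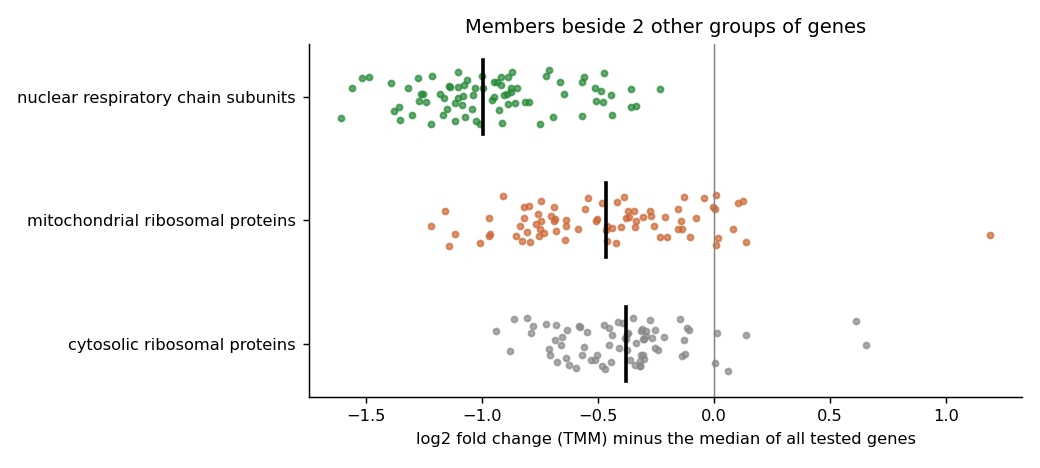
Log2 fold change, Sox4 over EV (TMM), minus the median of all tested genes, for 77 mitochondrial ribosomal protein genes, 75 cytosolic ribosomal protein genes and 79 nuclear respiratory chain genes. Each point is a gene and each black line a group median. All respiratory chain genes lie below 0, as do 68 members and 69 cytosolic ribosomal protein genes.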

How the data were processed

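RNA-seq libraries of 3 EV and 3 Sox4 hepatocyte preparations were compared. The authors aligned reads to GRCm39 with STAR (2.7.10b in the submitters' processing notes). Raw counts per gene, made by the authors with featureCounts 2.0.1, were deposited. The annotation release, strand setting and treatment of multiply mapped reads are not given in the sources used here. A deposited table normalized with DESeq2 was not used. Genes were filtered with filterByExpr (minimum count 10, minimum total 15) and tested with edgeR 4.0.16 (quasi-likelihood, robust, no covariate) in R 4.3.3, with TMM, with total counts, and with the members' summed counts as library size. limma 3.58.1 (voom) and DESeq2 1.42.0 served as alternatives. SE values are of differences in mean log2 CPM (prior count 2). The test was checked on simulated counts in which few genes changed, up and down alike. That check cannot show which scaling holds for these libraries, where many genes were called. Lengths, overlaps, shared 50-base words and neighbours came from GENCODE M21 (GRCm38; the counts use GRCm39, so no coordinates are taken from it) and promoters from RefSeq. Groups and replicate numbers came from the labels. Each library was taken as 1 mouse preparation, and p-values measure the spread between these libraries. Over the members, same-group library pairs varied beyond sampling noise (chi-square per degree of freedom 2.80 to 13.5).

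The members and lists were chosen with earlier results of these data known. Named with values were the 8 members with the highest and the 8 with the lowest TMM fold change, members called against the direction of most, the 5 highest per kb, the Mrps18 paralogs, members called relative to the group in all fits that left out 1 library, untested members, ribosomal proteins with other symbols, and the 3 genes of each other list with the smallest adjusted p. Slc5a3 was named as an overlapping gene after its values were seen.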

Additional observations from a re-analysis of the deposited data

How the results depend on the processing

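Scaling, single libraries and, on 2 scales, a replicate block changed the counts of called mitochondrial ribosomal protein genes. With TMM, 45 members were called (44 lower, 1 higher, median -0.42). With total counts, 20 were called (14 higher, 6 lower, median 0.045), and with the members' summed counts 21 (13 higher, 8 lower, median 0.017). Called counts stayed within 1.5 times with the other size factors, tests and filters tried, and no paired block moved the TMM count past that limit. With total counts, Mrps18a (0.045), Mrps18c (0.24), Dap3 (0.21), Chchd1 (0.17), mt-Co1 (0.023) and mt-Nd2 (0.14) changed sign. The 120 other mitochondrial genes gave 31 higher, 8 lower and a median of 0.18 with total counts, and the cell type markers 10 higher, 3 lower and 1.15.

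Leaving out 1 library at a time gave 29 to 50 called members with TMM (28 to 49 lower, 1 to 1 higher, median -0.54 to -0.40), 12 to 28 with total counts (2 to 16 lower, 8 to 14 higher, median -0.065 to 0.071) and 12 to 31 relative to the members' sum (4 to 16 lower, 6 to 15 higher, median -0.035 to 0.047). The other mitochondrial genes gave 42 to 63 (36 to 52 lower, 5 to 11 higher, median -0.30 to -0.27). Mrpl18 (-0.046 to 0.11), Mrpl22 (-0.23 to 0.23), Mrps25 (-0.11 to 0.16) and Mrpl9 (-0.011 to 0.077) changed sign among these fits. The cause of these changes was not tested.

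Over all tested genes, deviations from group means correlated at 0.27, -0.09 and 0.13 within replicate numbers 1, 2 and 3. These values cannot decide whether libraries of the same number were paired. With the replicate number as a block, 12 members were lower with total counts and 14 relative to the members' sum. Chosen after seeing the data, the 40 members with no exon overlap and at most 10% shared sequence gave 23 lower and none higher with TMM, and 1 lower and 7 higher with total counts. Of 642 values of the named genes under alternatives, 580 stayed the same in sign and call. Another 35 were no longer called, 14 were newly called and 13 changed sign. Many of these genes were named for their fold change, their adjusted p or their calls in the fits that left out 1 library. For the last kind, an unchanged call in those fits was fixed in advance. The counts therefore do not measure how stable the members are. With 3 libraries a group, an exact permutation test of 1 value cannot go below 0.1.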
